A study of Mus musculus with 4 samples.

Results

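Parietal endoderm-like cells were cells of the combined table with at least 500 detected genes, at most 10% mitochondrial counts and at least 2 unique molecular identifiers (UMIs, counted mRNA molecules) in 4 or more of the 6 genes Gkn2, Srgn, Thbd, Fst, Lama1 and Plat. The members were thus chosen by measured UMI counts of these 6 genes. The rule found 197 such cells among 8876 kept cells, from 10090 in the table. Since the 6 genes chose the cells, their own levels are a description and support nothing.

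The study made single-cell RNA libraries (10x Genomics) from day 9 mouse embryoid bodies, which are aggregates of differentiating embryonic stem cells. Control bodies came from control stem cells and DUX-pulsed bodies from stem cells given a pulse of DUX, a transcription factor of embryonic genome activation. Each group had 2 libraries, stated to be biological replicates. Stem cell line, sex, the agent that induced DUX, and the length of the pulse are not given in the sources used here. Values below are listed in the order control 1, control 2, DUX-pulsed 1 and DUX-pulsed 2, and CPM stands for counts (UMIs) scaled to a total of 1000000, over the summed UMIs of the cells named or, where said, of a single cell.

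Parietal endoderm is the extraembryonic tissue that lines the yolk sac cavity of the early rodent embryo against the trophoblast. It arises from primitive endoderm, as visceral endoderm does, and leaves that epithelium in a change toward single migrating cells that involves parathyroid hormone related signals through Pth1r. It is known for secreting Reichert's membrane, a thick basement membrane of laminin, collagen IV, nidogen, perlecan and Sparc, and for expressing thrombomodulin (Thbd) and tissue plasminogen activator (Plat) where the embryo meets maternal blood.

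The genes Gkn1 and Gkn2, which encode the secreted gastrokines, lie side by side on mouse chromosome 6 with starts 22450 bases apart, and their 2 promoters are shown because the pair was detected in largely shared cells. Gkn2 was part of the rule and Gkn1 was not. Each line gives the 250 bases before the start, read toward the gene (RefSeq, GRCm38.p6), with chr6:87350916-87351165 on the minus strand for Gkn1 and chr6:87373115-87373364 on the plus strand for Gkn2. Capitals mark GATAA on either strand (TTATC where it lies on the other strand), the core of GATA factor motifs, chosen after these sequences were seen.
Gkn1: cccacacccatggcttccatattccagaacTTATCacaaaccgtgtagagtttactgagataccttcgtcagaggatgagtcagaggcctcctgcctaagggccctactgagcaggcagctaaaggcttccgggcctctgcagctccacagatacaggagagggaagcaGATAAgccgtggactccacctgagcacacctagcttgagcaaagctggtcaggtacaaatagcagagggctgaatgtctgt
Gkn2: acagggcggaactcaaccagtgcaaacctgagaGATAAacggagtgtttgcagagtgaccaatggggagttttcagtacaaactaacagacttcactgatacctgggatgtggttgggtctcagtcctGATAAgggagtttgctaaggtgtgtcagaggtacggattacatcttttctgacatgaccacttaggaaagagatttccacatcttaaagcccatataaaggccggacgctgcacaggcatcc
Each promoter held 2 matches. Of 32851 RefSeq promoter windows of the same length, 22.6% held at least 1. Of the 20 genes with the largest ratio of members over other cells, given below, 17 had a window and 2 of these (Gkn1 and Pth1r) held a match, 11.8% against 25.5% of all genes. A match describes letters and is not a measured binding site.

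The 197 members were not one kind of cell. Per cell, the 6 rule genes together took from 132 to 21385 CPM of the cell, and the cells with low values carried visceral endoderm genes. A line at 1000 CPM, set after the cells were seen, parted 147 core cells from 50 peripheral cells. By library the core held 31, 4, 103 and 9 cells and the periphery 17, 19, 11 and 3. The line cuts a range, and 18 members lay between 800 and 1250 CPM.

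Peripheral cells were deep and rich in yolk sac transport genes. Their median depth was 68301, 47877, 61708 and 74780 UMIs, against 45280, 28504, 51652 and 34500 in the core. Ttr, the thyroid hormone carrier made by visceral endoderm, stood at 6262, 9539, 1081 and 3463 CPM in peripheral cells and at 321, 95.4, 334 and 233 CPM in core cells. Lama1, a rule gene, stood at 147, 88.3, 289 and 168 CPM in the periphery and at 2005, 2167, 1937 and 2439 CPM in the core. The visceral endoderm marker rule (Amn, Cubn, Apob, Apoa1, Apom and Ttr, with the same thresholds) was also met by 46 of 50 peripheral cells and 44 of 147 core cells, 39 of the latter in DUX-pulsed 1. It was met by 57.3, 63.8, 16.1 and 12.8% of the cells that were not members. The median sum of these 6 markers was 7128, 14238, 829 and 5654 CPM of the cell in the periphery and 353, 2268, 494 and 850 in the core. In other cells it was 5577, 7249, 40.5 and 31.7. The core median thus lay below other cells in both controls and above them in both DUX-pulsed libraries. By summed CPM the core was lower in every library, at 688, 512, 763 and 677 against 9636, 10255, 2952 and 2192 CPM. Because the line used the rule genes, the Lama1 gap was fixed by it. Outside the rule, the median summed level of Col4a1, Col4a2, Lamb1, Lamc1 and Sparc was 17281, 67249, 18464 and 30732 CPM of the cell in the core, 4546, 3498, 8143 and 5863 in the periphery and 1965, 2308, 1084 and 1280 in other cells. The core median was the highest of the 3 in every library, over only 4 cells in control 2, where 19 of 23 members were peripheral. Core values stand beside those of all members for the genes that the results turn on.

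**Figure D1:**
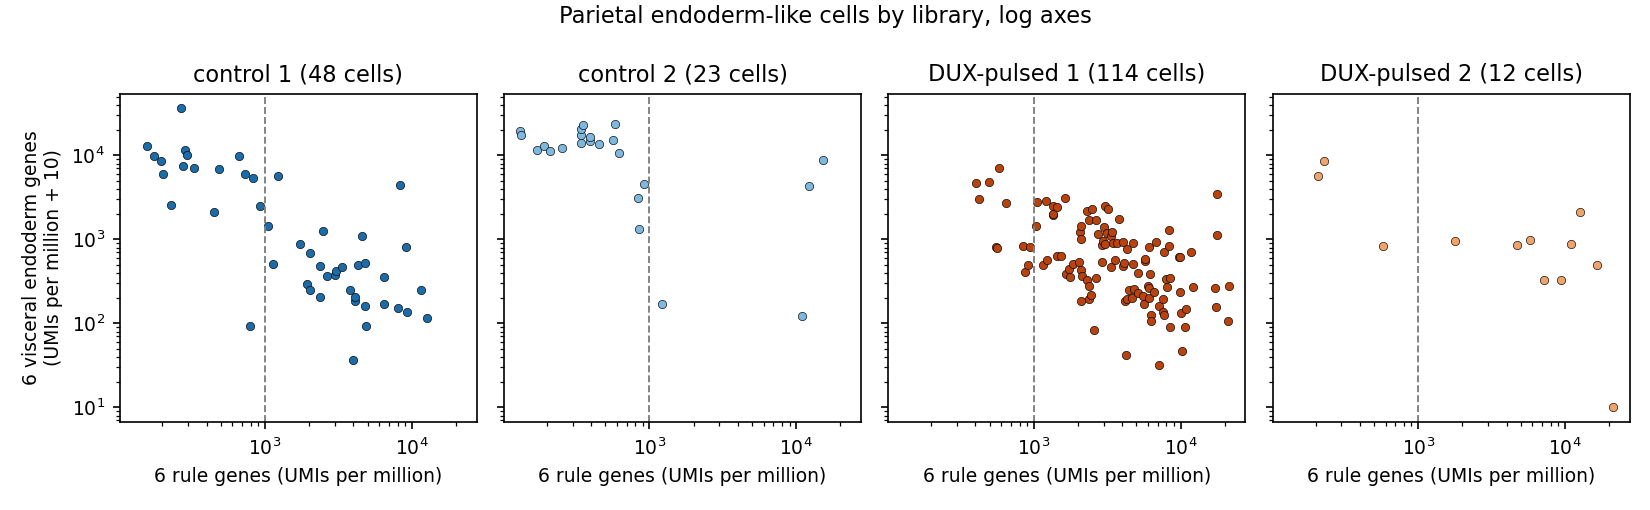
Each point is 1 member; the x axis is the summed level of the 6 rule genes and the y axis that of the 6 visceral endoderm markers, both in CPM of the cell on log axes (10 added on y), with the dashed line at 1000. Most control 2 cells lie left of the line with high visceral endoderm levels, and 103 of 114 DUX-pulsed 1 cells lie right of it.

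The threshold cut through a continuous range. Another 533 kept cells had 3 of the 6 genes, while 137, 40 and 20 members had 4, 5 and 6. Cells just outside, with 3 genes, had median summed levels of the rule genes of 240, 258, 730 and 423 CPM. Cells just inside, with 4, had 858, 373, 2637 and 4683. The values on both sides of the threshold were closest in control 2 and farthest apart in DUX-pulsed 2.

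Across the series, kept cells numbered 2824, 2636, 2063 and 1353. Members were deeper than other cells in every library, with medians of 49189, 47877, 52616 and 60984 UMIs against 30089, 28178, 26673 and 27107. Their median mitochondrial share was 7.46, 7.37, 4.88 and 6.85%, against 6.2, 6.41, 3.94 and 4.52%. Of 10082 barcodes 8 occurred in more than 1 library, and no member had one. Over all kept cells, 5 chromosome stretches moved as blocks between groups, higher in DUX-pulsed libraries over all of chromosome 13 and the end of chromosome 4, lower over 2 stretches of chromosome 5 and the end of chromosome 16. The 3 expressed genes of chromosome Y were higher too, with a median log2 difference of 3.62. The settings that bound the stretches were chosen after running medians were seen, and the comparison of groups was also run without their genes.

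Members were set against all other kept cells of their own library, as a description with no test, over 6861 genes of at least 20 CPM in either set. Members stood above other cells in all 4 libraries for 1597 of these genes, 23.3%, and below for 1500, 21.9%. Core cells stood above in 1650, 24.0%. The median log2 ratio of members over other cells was 0.04 over these genes.

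Of 14 parietal endoderm markers outside the rule, 10 stood above other cells in every library, with a list median log2 ratio of 2.2 in members and 2.79 in core cells. Col4a1, a chain of collagen IV, stood at 3462, 1922, 4648 and 5186 CPM in members, 4966, 9311, 4929 and 6757 CPM in core cells and 666, 896, 365 and 272 CPM in other cells. Sparc, a collagen-binding glycoprotein, stood at 5704, 3288, 8692 and 8789 CPM in members, 7913, 13230, 9118 and 11358 CPM in core cells and 1213, 1316, 1182 and 1309 CPM in other cells. For both genes control 2 was the lowest member sum, and each member sum exceeded every sum of other cells. Pth1r, the receptor for parathyroid hormone related protein, stood at 700, 241, 1302 and 947 CPM in members, 1033, 798, 1335 and 1287 CPM in core cells and 169, 162, 106 and 64.7 CPM in other cells. Sox7, an endoderm transcription factor, stood at 43.0, 6.47, 55.4 and 82.0 CPM in members, against 1.90, 0.871, 4.78 and 3.46 CPM. At least 1 Sox7 UMI was seen in 74.2, 25, 72.8 and 55.6% of core cells and in 3.46, 1.65, 6.36 and 3.73% of other cells, which had the lower median depth in every library.

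Vim went against the name. This intermediate filament gene of mesenchymal cells is often used as a marker of parietal endoderm. It stood at 250, 188, 229 and 197 CPM in members and 254, 503, 228 and 238 CPM in core cells. Other cells had 438, 313, 1247 and 1326 CPM, above the members in every library and above the core in 3 of 4. Dab2, Krt19 and Gata6 also did not stand above other cells in every library, so they and Vim were the 4 of 14 that did not.

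The matrix genes divided by chain. Of 15 basement membrane genes of at least 20 CPM, the rule gene Lama1 left out, 9 stood above other cells in all 4 libraries, with a list median log2 ratio of 1.23 in members and 1.72 in the core. Lamb1 and Lamc1, the beta and gamma chains that join Lama1 in laminin-111, were both among them. Lamc1 stood at 587, 221, 1124 and 1273 CPM in members and 47.3, 72.7, 76.4 and 104 CPM in other cells. Its core levels, 977, 1595, 1220 and 1853 CPM, were from 16 to 21.9 times those of other cells. Lamb1 stood at 1465, 734, 2010 and 2172 CPM in members and 2176, 3182, 2184 and 3094 CPM in core cells against 301, 359, 177 and 178 CPM. Both chains were therefore high in every library, and lowest in control 2 with its many peripheral cells.

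The other laminin alpha chains did not stand above other cells in every library. Lama5, the alpha chain of most epithelial basement membranes, stood at 28.6, 40.4, 15.2 and 16.4 CPM in members and 42.8, 48.5, 36.1 and 53.0 CPM in other cells. Lama2 had 1 UMI in DUX-pulsed 1 members, at 0.154 CPM, and none elsewhere in the members, while Lama3 stayed at or under 0.809 CPM in all member sums. Lama4 stood at 6.15, 29.9, 0 and 3.28 CPM, and the 0 in DUX-pulsed 1 allows up to 0.461 CPM from counting alone. For collagen IV the same held. Col4a1 and Col4a2 were high, and Col4a5 and Col4a6, which make other collagen IV trimers, stayed at or under 3.28 CPM in every member sum.

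Nid1 and Hspg2, which link laminin and collagen IV networks, also stood above other cells. Nid1 (nidogen) had 149, 182, 224 and 483 CPM in core cells against 5.90, 4.95, 37.9 and 57.3 CPM. In control 2 the core value came from 1 of 4 cells, and 2 of 23 members had a UMI. Hspg2 (perlecan) had 191, 208, 136 and 157 CPM in core cells against 21.3, 23.1, 64.4 and 91.7 CPM. The gap over other cells was narrower in both DUX-pulsed libraries, where other cells had more of both transcripts.

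Col18a1, a collagen of vascular and epithelial basement membranes, and Fn1, fibronectin, stood below. Col18a1 had 31.1, 42.9, 3.69 and 9.84 CPM in members and 150, 138, 134 and 196 CPM in other cells. Fn1 had 62.9, 165, 53.3 and 25.3 CPM in core cells and 346, 451, 494 and 809 CPM in other cells. For all members the Fn1 value in control 2, 457 CPM, was level with 451 CPM in other cells.

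**Figure D2:**
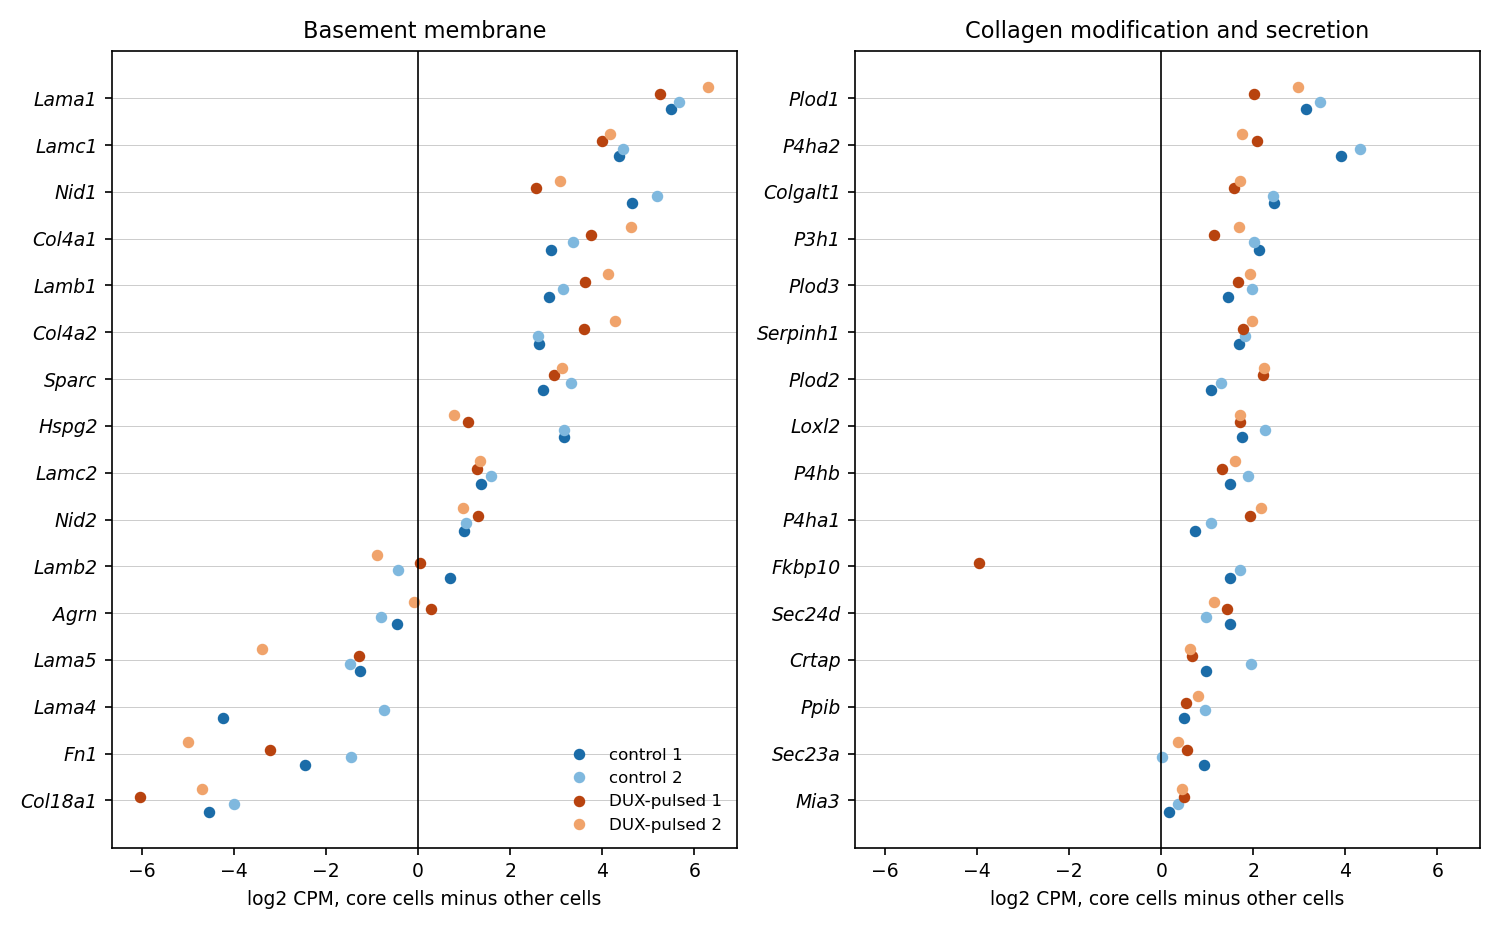
Log2 difference in CPM between core cells and other cells of the same library for genes of 2 lists with at least 20 CPM, 1 point a library; a library with no UMI has no point. Laminin-111 and collagen IV genes lie right of 0 in all 4 libraries, Col18a1 and Fn1 lie left of it, and Fkbp10 lies right of 0 in both controls and left of it in DUX-pulsed 1.

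Genes that modify and fold collagen stood above other cells almost as a group. Of 16 measured at 20 CPM or more, 15 were above in all 4 libraries, with a list median log2 ratio of 1.07 in members and 1.70 in the core, and Fkbp10 was the exception. P4ha2, a prolyl 4-hydroxylase subunit, stood at 419, 130, 485 and 443 CPM in members and 711, 919, 517 and 645 CPM in core cells against 47.6, 45.9, 123 and 190 CPM in other cells. Serpinh1, the collagen chaperone HSP47, stood at 2307, 1782, 2205 and 2595 CPM in members and 2973, 4101, 2295 and 3542 CPM in core cells against 917, 1161, 674 and 896 CPM. Plod2, which hydroxylates lysines of collagen, stood at 663, 655, 940 and 1109 CPM against 343, 525, 216 and 286 CPM. All 3 were higher than other cells in every library. Lox, which crosslinks collagen outside the cell, stayed at or under 3.23 CPM in member sums, whereas its relative Loxl2 stood at 337, 303, 443 and 577 CPM against 135, 200, 144 and 233 CPM.

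Chaperones of the endoplasmic reticulum stood higher by less. Of 16 genes, 10 stood above other cells in every library (13 in the core), with a list median log2 ratio of 0.68 in members. Calr (calreticulin) stood at 1809, 1190, 1528 and 1970 CPM in members and 875, 923, 714 and 704 CPM in other cells.

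Clotting and plasminogen genes showed a selective pattern. Of 9 genes of at least 20 CPM, the rule genes Thbd and Plat left out, 5 stood above other cells in all libraries and 1 below. F3, tissue factor, which starts clotting, stood at 171, 298, 347 and 402 CPM in members and 254, 1985, 379 and 597 CPM in core cells against 11.9, 29.0, 18.0 and 20.5 CPM. Tfpi, the inhibitor of the tissue factor pathway, stood at 357, 413, 798 and 822 CPM in members and 357, 841, 804 and 602 CPM in core cells against 204, 171, 154 and 68.1 CPM. Initiator and inhibitor thus stood high in the same sums. Procr, the protein C receptor, stood at 21.7, 9.71, 48.4 and 36.1 CPM against 4.46, 3.84, 8.78 and 7.11 CPM. Plaur, the urokinase receptor, stood at 65.5, 80.9, 63.9 and 55.8 CPM against 4.35, 5.49, 12.6 and 11.4 CPM. Plau, urokinase itself, had no UMI in any member, which allows up to 0.270 CPM over all 11122980 member UMIs. The member sums thus held the urokinase receptor with no urokinase UMI. Plau was rare in other cells too, detected in 0.180, 0.651, 1.33 and 1.42% of them.

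Genes of the activin and TGF-beta pathway did not follow Fst. Fst encodes follistatin, which binds and blocks activins. Of 14 pathway genes of at least 20 CPM, Fst left out, 2 stood above other cells in all libraries (Acvr1 and Tgfbr2) and 7 below, with a list median log2 ratio of -0.21. The activin ligands were scarce, with Inhba at 0.362 CPM in control 1 and no UMI in the other 3 libraries and Inhbb with no UMI in any member. Both were rare in other cells too, with Inhba detected in 0.432, 0.268, 2.46 and 2.98% and Inhbb in 0.901, 1.22, 1.13 and 1.49%. Acvr1, a type I receptor, stood at 29.3, 31.5, 55.4 and 72.2 CPM against 18.7, 25.2, 17.4 and 20.8 CPM. Tgfb1 stood at 13.7, 23.5, 6.76 and 3.28 CPM in members, lower than the 56.5, 37.9, 71.1 and 67.9 CPM of other cells.

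Of 14 transcription factors of extraembryonic endoderm measured at 20 CPM or more, 5 stood above other cells in all libraries and 3 below. Over all genes of at least 20 CPM these shares were 23.3 and 21.9%. Sox17, an endoderm factor, stood at 352, 162, 680 and 494 CPM in members and 165, 158, 54.1 and 39.4 CPM in other cells. Snai1, which represses epithelial genes, stood at 44.5, 4.85, 57.3 and 95.2 CPM against 3.55, 2.61, 8.32 and 7.56 CPM. Other factors of that change were lower. Snai2 stayed at or under 0.461 CPM in member sums, Zeb1 at or under 3.62 CPM and Zeb2 at or under 3.28 CPM. Twist1 was detected in 38.7, 25, 38.8 and 44.4% of core cells and 17.5, 13.1, 25.7 and 20.1% of other cells, but at 12.8, 17.3, 12.8 and 15.2 CPM in core cells against 17.1, 12.9, 31.7 and 23.0 CPM, so share and level went opposite ways in 3 of 4 libraries, with median depth higher in the core in all 4. Snai1 and the epithelial gene Cdh1 (E-cadherin) were spread differently over the members of control 1. There, Snai1 was detected in 24 of 31 core and 1 of 17 peripheral cells, and Cdh1 in 17 of 31 core and 16 of 17 peripheral cells. The Snai1 gap was narrower in DUX-pulsed 1, with 74 of 103 core and 5 of 11 peripheral cells. Snai1 was in 1 of 4 core and 2 of 19 peripheral cells of control 2, and in 4 of 9 and 0 of 3 of DUX-pulsed 2. Cdh1 stood at 50.1, 104, 44.9 and 35.4 CPM in core cells and 55.4, 73.7, 41.1 and 42.0 CPM in other cells, while Cdh2 (N-cadherin) stood at 0.642, 8.67, 1.03 and 2.53 CPM in core cells and 78.5, 107, 109 and 176 CPM in other cells. Of 18 adhesion and cytoskeleton genes, 5 stood above and 4 below in all libraries, near the 23.3 and 21.9% of all genes.

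Endocytosis and lysosome genes stood higher in 10 of 15 cases, with a list median log2 ratio of 1.01. Lrp2 (megalin), a receptor that takes up proteins, stood at 210, 130, 229 and 263 CPM in core cells against 19.9, 15.3, 38.8 and 8.67 CPM in other cells. Ctsl, a lysosomal protease, stood at 3144, 3929, 7297 and 5660 CPM in members against 3205, 3352, 1890 and 1192 CPM. In control 1 Ctsl was thus level with other cells, 57.3% of which met the visceral endoderm rule.

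The 20 genes of at least 100 CPM with the largest mean log2 ratio, rule genes left out, were Gkn1, Aqp8, Fxyd3, F3, Rhox5, Lamc1, Fabp3, Epop, Hs3st1, Col4a1, Lrp2, Trap1a, Nid1, Tinagl1, Col4a2, Lamb1, Crim1, Klf4, Pth1r and Epas1. Gkn1 led with a mean log2 ratio of 6.74 and levels of 72.3, 42.9, 325 and 118 CPM in members against 0.940, 0.598, 1.38 and 1.17 CPM. It was detected in 1 of 4 core cells of control 2, with 46 UMIs, and in 3 of 9 of DUX-pulsed 2. Of 41 core cells with at least 2 Gkn1 UMIs, 32 also had at least 2 of the rule gene Gkn2. The lead of Gkn1 therefore cannot be told apart from the choice of cells by Gkn2. Aqp8, a water channel, stood at 112, 19.4, 186 and 176 CPM against 4.33, 1.87, 10.9 and 3.35 CPM. Fabp3, a fatty acid carrier, stood at 2348, 484, 3044 and 2284 CPM against 195, 130, 412 and 166 CPM. Control 2, with mostly peripheral members, was the lowest member sum for these 3. Hs3st1 adds the sulfate that makes heparan sulfate bind antithrombin, and it stood at 252, 103, 391 and 379 CPM against 23.9, 38.2, 35.3 and 40.6 CPM.

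Rhox5 and Trap1a, 2 X-linked genes known from extraembryonic tissue and tumours, stood in that list too. Rhox5, a homeobox gene, had 424, 286, 732 and 389 CPM in core cells and 7.46, 2.33, 143 and 24.9 CPM in other cells. At least 1 UMI was seen in 74.2, 50, 96.1 and 77.8% of core cells and 4.68, 2.72, 22.6 and 12.8% of other cells. Trap1a had 254, 199, 428 and 397 CPM in core cells against 31.2, 28.9, 81.0 and 10.2 CPM. Both were therefore high in the core of every library, and DUX-pulsed 1 had the highest level of both in other cells too.

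Markers of mesenchyme, heart and blood were low in the core, and the sums of some other lists were not. Col1a1, a fibrillar collagen, stood at 0.642, 8.67, 0.856 and 17.7 CPM in core cells, against 47.2, 51.4, 302 and 853 CPM in other cells. The mesenchyme list (0 of 6 genes above other cells) summed to 2.57 to 52.0 CPM in core cells. The 12 cardiomyocyte genes (0 above of 11 that reached 20 CPM) summed to 34.7 to 83.4 CPM and the erythroid list (0 of 5 above) to 5.78 to 17.7 CPM. Of 6 endothelial class markers, Pecam1 stood at 0.642, 0, 0.342 and 2.53 CPM and Emcn had no UMI in any member. Cdh5 (VE-cadherin) stood at 46.9, 8.67, 17.3 and 40.4 CPM in core cells against 5.56, 2.39, 14.8 and 16.9 CPM in other cells and 288, 643, 400 and 515 CPM in cells that met the endothelial rule. It was detected in 58.1, 25, 31.1 and 33.3% of core cells and 1.91, 0.842, 4.72 and 3.58% of other cells, while Pecam1 was detected in 3.23, 0, 1.94 and 11.1% of core cells. Esam, a junction protein and another of the 6, was detected in 32.3, 0, 14.6 and 33.3% of core cells and 5.44, 2.14, 6.77 and 4.55% of other cells. The wide endothelial list summed to 643, 746, 555 and 564 CPM in core cells and 637, 682, 420 and 423 CPM in other cells, and Tek was detected in 35.5% of control 1 core cells against 7.56%. No member met the endothelial rule. The pluripotency list, which holds Klf4, summed to 808, 520, 642 and 690 CPM in core cells, above the 475, 466, 189 and 129 CPM of other cells. Gut and definitive endoderm genes, Sox17 among them, summed to 1510, 2003, 2149 and 2222 CPM against 8474, 9014, 1511 and 1470 CPM, higher than other cells in both DUX-pulsed libraries. The trophoblast list summed to 239, 78.0, 113 and 50.6 CPM against 190, 184, 450 and 265 CPM. Of genes of at least 20 CPM, only 1 of 5 pluripotency, 1 of 12 gut and 0 of 6 trophoblast genes stood above other cells in the core of all 4 libraries. These sums thus rest on few genes. The part of these markers in the results was not tested.

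Core cells differed among themselves in the gastrokines. Of 147 core cells, 41 had at least 2 Gkn1 UMIs, 40 had at least 2 Gkn2 UMIs and 32 had both. In 24 cells both reached at least 10, with highest counts of 439 for Gkn1 and 776 for Gkn2, and in 82 cells both were 0. Over the 147 cells the log2 counts (1 added) had a Pearson r of 0.93 and a Spearman rho of 0.79. The r was 0.83 over the 31 control 1 cells and 0.95 over the 103 DUX-pulsed 1 cells, and cells of 1 library share depth and source. Among other cells Gkn1 was detected in 1.69, 1.15, 2.72 and 1.57%. Gkn2 is a rule gene, so the number of cells that hold it is partly set by the rule.

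**Figure D3:**
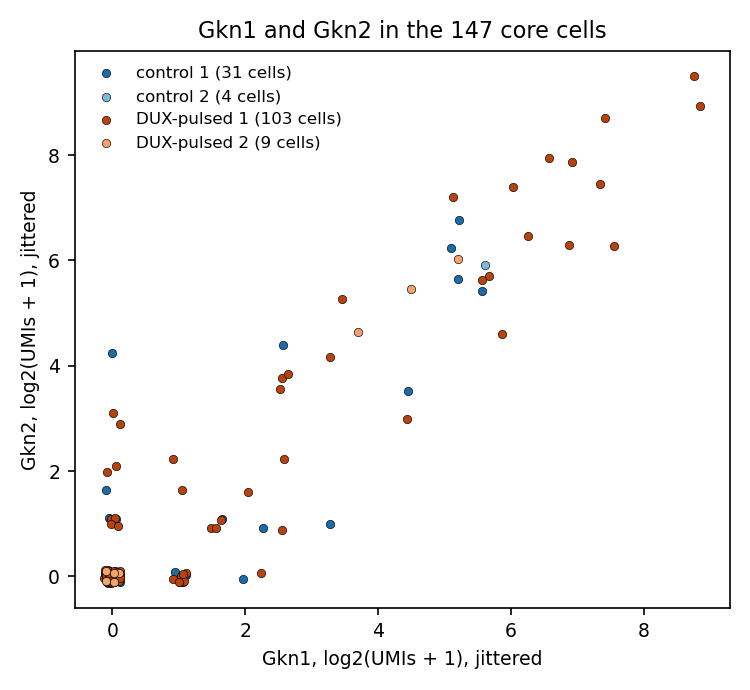
Gkn1 and Gkn2 UMIs per core cell, each as log2 of the count plus 1 with a small jitter, coloured by library. Of 147 cells, 82 sit at the origin and 24 hold at least 10 UMIs of both genes.

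Cells with Gkn1 also had less mitotic RNA in the 2 libraries with enough core cells to split. In DUX-pulsed 1 the 27 core cells with at least 2 Gkn1 UMIs had a median of 637 CPM over 15 G2 and M phase genes, and the other 76 cells had 2717. In control 1 the medians were 216 over 10 cells and 685 over 21 cells. The split was made after seeing the data and no test was made. Median depth was 51116 against 52369 UMIs in DUX-pulsed 1 and 39412 against 45335 in control 1. The summed level of Col4a1, Col4a2, Lamb1, Lamc1 and Sparc had medians of 21175 and 17311 CPM in DUX-pulsed 1 and 20375 and 16772 in control 1, higher with Gkn1 in both. The visceral endoderm sum was lower with Gkn1, at 263 and 537 in DUX-pulsed 1 and 240 and 462 in control 1. Gkn1 ran with the rule gene Gkn2. Core cells with at least 2 Gkn2 UMIs had a median rule gene sum of 8296 CPM, against 3349 CPM in the rest. Over the 197 members that sum ran with the matrix sum (Spearman rho 0.875) and against the visceral endoderm sum (-0.655). The median over the G2 and M genes was 604 CPM in core cells with at least 2 Gkn2 UMIs, against 1877 CPM in the rest. The mitotic, matrix and visceral gaps with Gkn1 therefore cannot be told apart from the rule gene sum.

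The same 15 genes were measured across libraries. Their median over core cells was 523, 1344, 2555 and 1064 CPM, against 605, 463, 499 and 306 in other cells. The core median lay above that of other cells in every library except control 1. By summed CPM the gap in those 3 libraries was smaller as a ratio, and control 1 lay further below, at 1275, 2341, 2826 and 2240 CPM in core cells against 1802, 1848, 2081 and 1862 CPM.

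Thbd, a rule gene, reached 2 UMIs in 17 of 31, 1 of 4, 19 of 103 and 3 of 9 core cells. Rhox5 reached 2 UMIs in 127 core cells and in 13 of 50 peripheral cells, 10 of which came from DUX-pulsed 1. By library these were 22 of 31, 2 of 4, 97 of 103 and 6 of 9 core cells. Among peripheral cells they were 0 of 17, 1 of 19, 10 of 11 and 2 of 3. Core and periphery were thus close in both DUX-pulsed libraries. Another 5 core cells had under 5000 UMIs, 2 from control 2 and 3 from DUX-pulsed 2. Their summed level of the 5 matrix genes, from 86249 to 121550 CPM, lay above that of all 142 deeper core cells, whose range was 5833 to 75098. Those of control 2 held 4116 and 2967 of its 115346 core UMIs, and its other 2 core cells 55371 and 52892.

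The share of members asked whether DUX-pulsed bodies held more parietal endoderm-like cells. Members made up 1.70% (exact binomial 95% interval 1.26 to 2.25) and 0.873% (0.554 to 1.31) of control cells, and 5.53% (4.58 to 6.60) and 0.887% (0.459 to 1.54) of DUX-pulsed cells. DUX-pulsed 1 stood above every other library and DUX-pulsed 2 was level with control 2. The difference in mean log2 share was 0.86, with a p of 0.667 in a two-sided exact permutation test over libraries, where 2 against 2 cannot go below 0.333. The intervals cover counting error only.

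Core cells made up 1.10, 0.152, 4.99 and 0.665% of kept cells, a log2 difference of 2.16 (exact permutation p of 0.667). After thinning every cell to 10000 UMIs the rule found 12, 1, 41 and 2 cells, or 0.507, 0.0474, 2.25 and 0.198%, out of cells that without thinning gave 2.03, 0.995, 6.26 and 0.792%. With 3 of 6 genes the shares were 9.74, 9.18, 8.58 and 2.66%, and the difference reversed to -0.98 (exact permutation p of 0.333). Without DUX-pulsed 1 the main difference was -0.46, so its direction rested on that library.

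**Figure D4:**
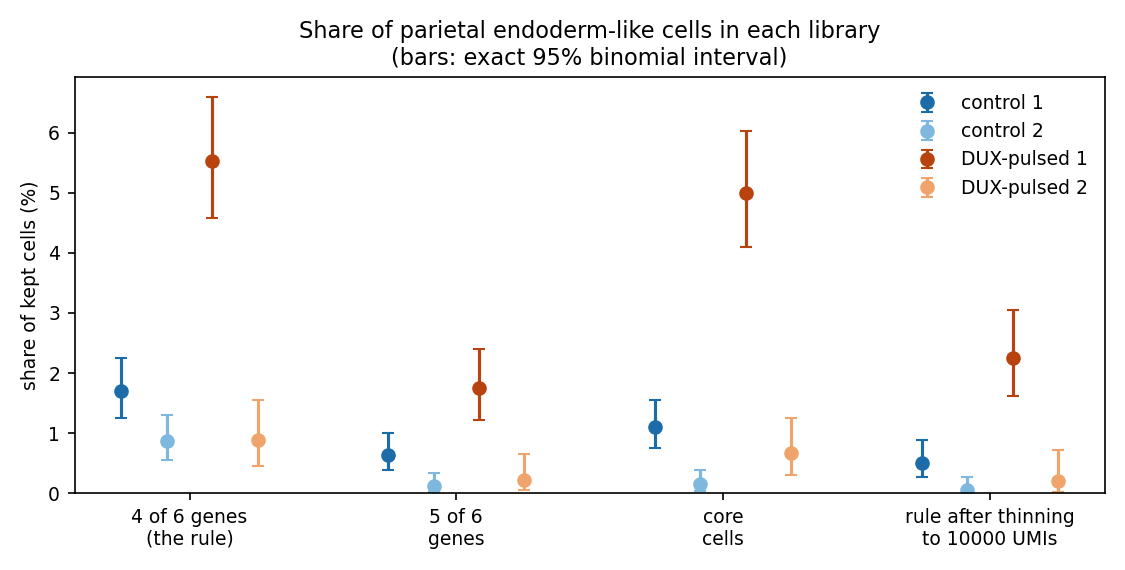
Share of kept cells in percent, 1 point a library with its exact 95% binomial interval, under the rule, under 5 of 6 genes, for core cells and under the rule after thinning to 10000 UMIs. DUX-pulsed 1 is highest in each setting, and DUX-pulsed 2 lies below control 1 in each.

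DUX-pulsed and control members were compared to ask whether parietal endoderm-like cells of the 2 kinds of body differed in expression. Of 9983 genes tested, 66 rose (0.661%) and 145 fell (1.45%), 2.11% in all, at an adjusted p under 0.05 (edgeR quasi-likelihood test, Benjamini-Hochberg), and 1703 (17.1%) had an unadjusted p under 0.05. Without DUX-pulsed 1 the counts were 0 and 0, without DUX-pulsed 2 they were 0 and 4, and without control 1 they were 438 and 551. A fit that leaves out 1 library has a lone sample in 1 group, which is assumed to vary like the pair, so these calls rest on the spread of the other group alone. Over core cells alone, 0 of 8740 genes rose and 3 fell (0.0343%), with 687 genes (7.86%) at an unadjusted p under 0.05; DESeq2 called 6 rises and 6 falls there. Makeup moved with the group, as 17 of 48 and 19 of 23 control members but 11 of 114 and 3 of 12 DUX-pulsed members were peripheral. Without members that also met the rule of another class, the counts were 11 rises and 19 falls. In sums over cells, fewer cells with a transcript and less of it per cell cannot be told apart, so shares of cells are added where a result turns on them.

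Fkbp10 fell in members and in the core. It encodes a chaperone of the endoplasmic reticulum that helps crosslink collagen and lies at chr11:100415697-100424824 (mm10). Its levels were 87.5, 38.8, 3.07 and 4.92 CPM in members, and both DUX-pulsed sums lay under both controls. The log2 difference was -4.20 (SE 0.53, edgeR adjusted p of 0.0179). In core cells the levels were 118, 104, 2.91 and 0 CPM, where the 0 allows up to 7.58 CPM, and the log2 difference was -5.37 (SE 0.51, edgeR adjusted p of 0.000681). At least 1 UMI was seen in 27 of 31 and 3 of 4 control core cells, and in 7 of 103 and 0 of 9 DUX-pulsed core cells.

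Fkbp10 was not low elsewhere in DUX-pulsed bodies. Other cells had 42.0, 31.6, 45.5 and 55.3 CPM, with a UMI in 57.1, 46.7, 50 and 48.1% of them at lower median depth. Cells that met the visceral endoderm rule had 33.6, 27.0, 19.6 and 30.5 CPM and cells that met the mesenchyme rule 163, 121, 130 and 140 CPM. In the fit of the interaction, the log2 difference in members minus that in other cells was -4.64 (SE 0.37, edgeR adjusted p of 0.0020). The gene lies outside the shifted chromosome stretches. In members the fall was not called without DUX-pulsed 1 (-3.67, edgeR adjusted p of 0.369) or without DUX-pulsed 2 (-4.31, edgeR adjusted p of 0.0583), and in core cells it was not called without DUX-pulsed 2 (-5.20, edgeR adjusted p of 0.0857). Without DUX-pulsed 1 the core difference was -9.29, set against 0 UMIs in DUX-pulsed 2, so its size depends on the prior count.

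Crip2, a LIM domain protein of vascular and heart cells, fell too. Its levels were 80.7, 46.1, 16.1 and 16.4 CPM in members (log2 difference -1.94, SE 0.36, edgeR adjusted p of 0.0331). In core cells they were 122, 225, 16.1 and 17.7 CPM (-3.20, SE 0.39, edgeR adjusted p of 0.00739). Other cells had 80.0, 66.2, 239 and 298 CPM, the opposite order. A UMI was seen in 22 of 31 and 1 of 4 control core cells and in 35 of 103 and 3 of 9 DUX-pulsed core cells, so the control 2 level came from 1 cell. Without DUX-pulsed 2 the core difference was -3.25 and not called (edgeR adjusted p of 0.693). In all members it was not called without DUX-pulsed 1 (edgeR adjusted p of 0.387) or DUX-pulsed 2 (edgeR adjusted p of 0.125).

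Eng (endoglin), a co-receptor for TGF-beta and BMP ligands, was the third core gene. Core levels were 65.5, 26.0, 3.08 and 0 CPM (log2 difference -4.28, SE 0.61, edgeR adjusted p of 0.0243), and it was not called without DUX-pulsed 2 (edgeR adjusted p of 0.693). Member levels were 37.3, 2.43, 2.92 and 0 CPM, and the groups overlapped there apart from the high control 1. In all members it was not called (log2 difference -3.07, SE 1.03, edgeR adjusted p of 0.171). A UMI was seen in 24 of 31 and 1 of 4 control core cells, and in 9 of 103 and 0 of 9 DUX-pulsed core cells, so the control value rested largely on control 1.

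**Figure D5:**
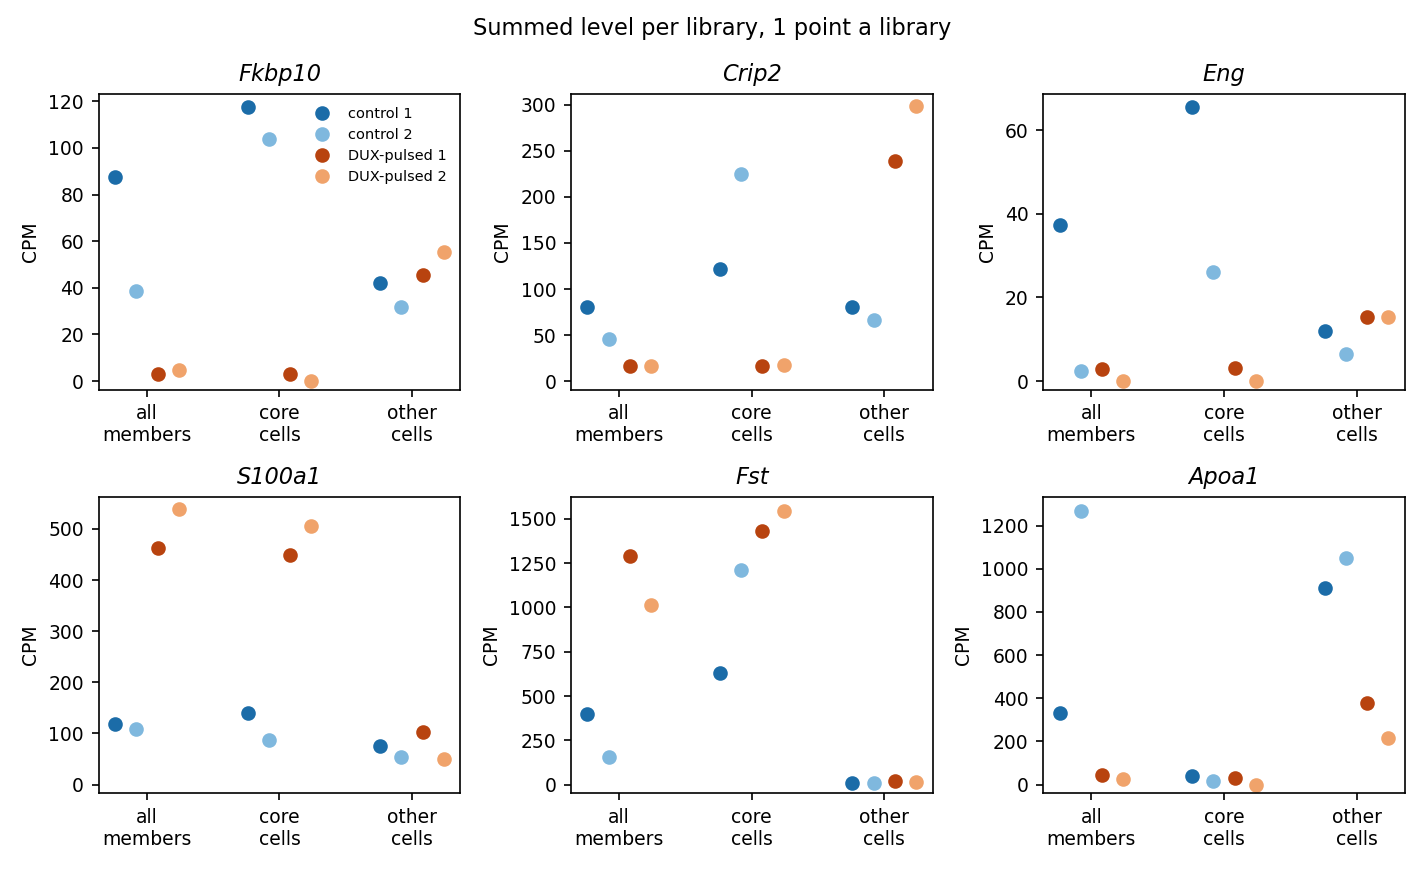
CPM per library in all members, in core cells and in other cells for 6 genes, 1 point a library. Fkbp10 is near 0 in both DUX-pulsed sums of members and core and not in other cells, whereas the Apoa1 gap of all members is absent from the core.

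The 10 largest rises by the naming rule were Serpinb6c, Arhgef28, Cubn, Spock1, Tesc, S100a1, Ypel2, Il6st, Fst and Grk6. Of these, 7 (Serpinb6c, Arhgef28, Spock1, Tesc, Il6st, Fst and Grk6) lay in chromosome stretches that moved over all kept cells, and so did 40 of all 66 rises (60.6%) and 3 of 145 falls (2.07%), against 855 of 9983 tested genes (8.56%, 1 of them on chromosome Y). Of the 40 rises, 33 lay on chromosome 13, 6 on chromosome 4 and 1, Tesc, in a chromosome 5 stretch that was lower over all kept cells. Without the genes of the stretches and chromosome Y, 25 rose and 128 fell. Median log2 differences of members in those stretches were 0.70 on chromosome 4, -0.34 on chromosome 5, 0.89 on chromosome 13 and -0.66 on chromosome 16, against -0.01 over all genes tested. In core cells they were 0.21, -0.23, 0.93 and -0.55. The 1 tested gene of chromosome Y differed by -1.13 in members and -1.06 in core cells, opposite to chromosome Y over all kept cells. S100a1, a calcium-binding protein, lay outside the stretches, at 119, 108, 462 and 538 CPM in members (log2 difference 2.17, SE 0.22, edgeR adjusted p of 0.0107). In core cells it stood at 139, 86.7, 449 and 506 CPM, with no overlap of the groups (1.98, SE 0.34, edgeR adjusted p of 0.0641). Cubn (cubilin), an endocytic receptor, stood at 42.0, 51.8, 121 and 323 CPM in members (2.24, SE 0.43, edgeR adjusted p of 0.0359) and was not called in the core (1.90, SE 0.41, edgeR adjusted p of 0.105). Fst stood at 397, 156, 1292 and 1016 CPM in members (log2 difference 2.09) and at 629, 1214, 1431 and 1547 CPM in core cells (0.77). Fst was a rule gene on chromosome 13, so these values are a description.

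The 10 largest falls were Cox4i2, Ly6h, Spp2, Gc, Apoa1, Nrp2, Fkbp10, Qprt, Cyp3a13 and Slc13a4. Except for Fkbp10, all were lower in the core than in all members in both controls, and of these 9 only Apoa1 and Ly6h had enough core counts to be tested. Apoa1, an apolipoprotein of visceral endoderm, stood at 331, 1270, 46.1 and 27.9 CPM in members (log2 difference -4.28, SE 0.60, edgeR adjusted p of 0.0206) and at 38.5, 17.3, 29.8 and 0 CPM in core cells (-0.65, SE 0.67, edgeR adjusted p of 0.942). Peripheral cells had 709, 1399, 187 and 79.5 CPM. Ly6h stood at 199, 361, 3.99 and 4.92 CPM in members and 35.3, 43.3, 3.94 and 5.06 CPM in core cells, with no overlap in either (core log2 difference -3.13, SE 0.55, edgeR adjusted p of 0.0641).

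Parietal endoderm markers outside the rule were not called between the groups, in a test that called 2.11% of all genes. A count of 0 in so short a list is close to that share. In the parietal endoderm list outside the rule, 0 of 14 genes rose and 0 fell in members, with a median log2 difference of 0.93 in members and 0.25 in core cells against -0.01 in both over all genes tested. In members the 2 DUX-pulsed libraries lay above both controls for 2090 of all 9983 genes, 20.9%, and below for 2824, 28.3%. Col4a1 differed by 0.91 in members (edgeR adjusted p of 0.155) and by -0.24 in the core (edgeR adjusted p of 0.984). Of 15 basement membrane genes tested, Lama1 left out, 0 rose and Col18a1 fell (-2.85, SE 0.49, edgeR adjusted p of 0.0288), with a list median of 0.74 in members and -0.00017 in the core. Col18a1 stood at 6.42, 8.67, 2.05 and 7.58 CPM in core cells, too few counts for the core test. Of 16 collagen modification genes, 0 rose and Fkbp10 fell, with a list median of 0.31 in members and -0.25 in the core. None of 16 chaperones of the endoplasmic reticulum was called.

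Among 10 clotting and plasminogen genes tested, rule genes left out, Tfpi rose (log2 difference 1.11, SE 0.21, edgeR adjusted p of 0.0353), and in the core it differed by 0.35 (edgeR adjusted p of 0.955). Among 15 pathway genes of activin and TGF-beta, Fst left out, 0 rose and 0 fell. None of 13 transcription factors was called. Among 18 adhesion and cytoskeleton genes, 0 rose and 3 fell, namely Krt7, Cldn7 and Tagln, none of them called in the core. Krt7 stood at 8.35, 0, 1.54 and 5.06 CPM in core cells and was not tested there. Tagln stood at 4.49, 286, 3.25 and 2.53 CPM in core cells (log2 difference -4.80, edgeR adjusted p of 0.258), the high value from 1 of 4 cells of control 2. Cldn7, a claudin of epithelial junctions, stood at 418, 814, 217 and 192 CPM in members and at 197, 113, 183 and 119 CPM in core cells, where the groups overlapped. The 6 visceral endoderm markers gave 1 rise (Cubn) and 2 falls (Apoa1 and Apom), none of the 3 called in the core. Apom stood at 43.7, 78.0, 73.5 and 5.06 CPM in core cells, where the groups overlapped. The sum of the 6 markers ran at 4474, 13117, 940 and 2190 CPM in members and 688, 512, 763 and 677 CPM in core cells. Of the 15 G2 and M genes, Ccnb1 (cyclin B1) rose, at 57.9, 66.3, 179 and 225 CPM in members (1.74, SE 0.23, edgeR adjusted p of 0.0197). In core cells it stood at 43.0, 86.7, 183 and 205 CPM and was not called (1.90, edgeR adjusted p of 0.0686).

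The difference between groups in members was also set against that in other cells, in 1 fit of 8 sums with the library as a block. It was more positive in members for 205 of 9983 genes (2.05%) and more negative for 311 (3.12%), 5.17% in all, with 20.1% of genes at an unadjusted p under 0.05. Other cells were a mixture whose makeup differed between groups, with 57.3 and 63.8% of control and 16.1 and 12.8% of DUX-pulsed cells meeting the visceral endoderm rule. A change in that makeup and a change within the other cell types cannot be told apart here. The share of peripheral cells among members also differed between groups, and its part was not tested.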

How the data were processed

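The authors' deposited table holds raw UMI counts per gene and cell of 20284 genes, made with Cell Ranger 2.2.0, STAR and mm10, per the submitters' processing notes. Cells were assigned to libraries by column name, and all columns of cells were used. Counts were summed per library over members, core cells or other cells. Groups were compared with edgeR 4.0.16 in R 4.3.3 (TMM, quasi-likelihood, Benjamini-Hochberg, threshold 0.05), keeping genes with at least 10 counts in 2 libraries and 40 in all. No covariate was used. DESeq2 1.42.0 was an alternative. With 2 libraries a group, p-values measure the spread between those libraries, called biological replicates in the series' design text. Member sums held 2764619, 1236507, 6512309 and 609545 UMIs and core sums 1557359, 115346, 5839928 and 395584, so control 2 and DUX-pulsed 2 set the precision.

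Scrublet scores (scanpy 1.11.5, Python 3.11.15) put 12 members in the top 5%, and no cell was removed. Floors are 3 counts. By the naming rule, the text names the 10 largest called rises and falls whose groups did not overlap and whose higher group averaged 50 CPM or more, 5 a direction for the interaction, 20 genes of 100 CPM or more against other cells, and members of the lists. Other genes (Crip2 and Eng in the core, Gkn1 among core cells) were named after their values were seen. The members and the 28 gene lists were chosen with earlier results of these data known. The line at 1000 CPM, the 20 CPM floor, the 5-gene matrix sum, the settings of shifted stretches, the Gkn1 split and the motif were chosen after seeing the data. Gene positions came from GENCODE by symbol and promoters from RefSeq (GRCm38.p6). The fits were tested on counts simulated with the dispersions of these data and a common mean per gene, apart from planted changes. Differences in makeup and shifted stretches were not simulated, so that test does not cover them.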

Additional observations from a re-analysis of the deposited data

Results flagged for a closer look

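In these genes the difference between DUX-pulsed and control libraries was itself different in parietal endoderm-like cells and in all other kept cells (edgeR interaction, Benjamini-Hochberg). More positive in members were Cyp26a1, which degrades retinoic acid (log2 3.57), Cemip (2.99), Sox17 (2.97), Dnmt3b (2.84) and Slc7a7 (2.84). More negative were Cox4i2 (-5.73), Spp2 (-5.02), Fkbp10 (-4.64), Krt7 (-4.50) and Tagln (-4.39). With 3 or more rule genes the last 2 and Spp2 were not called, at -1.62 for Krt7 (adjusted p of 0.172), -0.037 for Tagln (0.987) and -1.10 for Spp2 (0.0638). Over all settings the highest adjusted p was 0.268 for Krt7, 0.987 for Tagln, 0.460 for Spp2, 0.105 for Cox4i2, 0.0796 for Fkbp10, 0.658 for Cemip, 0.438 for Dnmt3b, 0.280 for Slc7a7, 0.268 for Cyp26a1 and 0.0867 for Sox17, so each lost its call in at least 1 setting. Cyp26a1 stood at 83.9, 80.9, 239 and 167 CPM in members, in the order control 1, control 2, DUX-pulsed 1 and DUX-pulsed 2. Its log2 ratio of members over other cells was 0.18, 0.09, 3.52 and 4.18, while other cells had 74.0, 76.2, 20.9 and 9.26 CPM. It was thus higher in DUX-pulsed than in control members (log2 difference 1.36, adjusted p of 0.0324) and lower in DUX-pulsed than in control other cells. Other cells were a mixture whose makeup differed between groups. Makeup of the members differed too, as 17 of 48 and 19 of 23 control and 11 of 114 and 3 of 12 DUX-pulsed members were peripheral. Cox4i2, Spp2 and Krt7 were not tested between groups in the core, and Tagln was not called there. The part of either makeup in these values was not tested.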

How the results depend on the processing

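The share difference reversed with 3 or more rule genes (-0.98) and ran from -0.46 (without DUX-pulsed 1) to 2.18 when 1 library was left out. For DUX-pulsed against control members, the rises and falls numbered 653 and 674 with 3 or more rule genes, 0 and 0 with 5 or more, 19 and 22 under stricter cell limits, 30 and 71 at up to 20% mitochondrial counts, 35 and 62 with 50 counts, 447 and 663 with no filter, 11 and 19 without members of another class, 23 and 65 without top doublet scores, and 25 rises without shifted regions. Leaving out 1 library gave 0 to 438 rises and 0 to 551 falls. Core cells gave 0 and 3, DESeq2 on them 6 and 6, and leaving out control 1, control 2, DUX-pulsed 1 or DUX-pulsed 2 gave 47, 123, 4 and 0 rises and 82, 93, 7 and 0 falls. A replicate block gave 408 and 493. The numbers share no source by the labels, and replicate differences correlated at 0.17 over 9983 genes. The interaction gave 1002 and 897 with 3 or more rule genes, 4 and 19 with 5 or more, 15 and 18 under stricter cell limits, 99 and 165 at up to 20% mitochondrial counts, 136 and 182 with 50 counts, 560 and 1001 with no filter, 134 and 154 without members of another class, 136 higher without top doublet scores and 174 lower in core cells. Leaving out 1 library gave 29 to 288 higher and 16 to 423 lower. Genes above other cells in every library numbered 858 under stricter cell limits and 1691 to 2454 with 1 library left out. Reversed values were 0.016 for Crip2 with 3 or more rule genes, and in core cells -0.17 (without DUX-pulsed 1) and -0.24 (without control 1) for Gkn2, -0.11 for Lamc1 and -0.18 for Plod2 without control 1, and -0.026 (without DUX-pulsed 1) and -0.29 (without control 1) for Tfpi. The cause was not tested. The 115346 core UMIs of control 2 limit every core comparison.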
